A study of Mus musculus with 3 samples.

Results

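The TRBJ1 cluster is the first of the 2 groups of joining segments in the mouse TCR beta locus, and its use was measured in clonotypes of CD4, CD8 and DN T cells (αβ T cells that lack both coreceptors). A clonotype, which is a set of reads with one CDR3 nucleotide sequence, was a member if its best matching J gene began with TRBJ1 and its V gene was a TRBV gene. Of 167967 TCR beta clonotypes in all, 53112 were members, with 16146 of 44807 in CD4, 24701 of 81212 in CD8 T cells and 12265 of 41948 in DN. They carried 43628 of 133667, 45186 of 150874 and 48533 of 194290 TCR beta reads. The files named 6 TRBJ1 genes, TRBJ1-1 to TRBJ1-6, among 13 TRBJ genes. No clonotype was listed with TRBJ1-7, and whether the reference used for the alignment held that gene is not known.

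All 3 libraries came from the spleen of 1 MRL.lpr mouse, a lupus-prone strain that carries the lpr mutation of Fas, aged 16 weeks and without a stated treatment. Each subset was sorted by flow cytometry, and mRNA of the same number of cells was made into 1 library. With 1 library per subset nothing below has a replicate check, and each test compares the libraries and not the conditions. Intervals are 95% Wilson intervals for shares, and they cover counting error only, because reads may be copies of one molecule and clonotypes of 1 read may hold sequencing errors. Clonotypes with a single read made up 62.4%, 70.6% and 57.7% of the TRBJ1 clonotypes in CD4, CD8 and DN T cells. The files hold CDR3 sequences and no other transcripts, and the identity of the sorted subsets could not be checked against their markers.

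A TCR beta chain is made when one D segment is joined to a J segment and one V segment is then joined to this DJ unit. In the RefSeq gene list of GRCm38.p6 the segments lie in the order Trbd1, the Trbj1 genes, Trbd2 and the Trbj2 genes. TRBJ1 can therefore be joined directly to TRBD1, whereas TRBD2 lies beyond the cluster. The J segment encodes the last residues of the CDR3, the loop that touches the peptide, and a join out of frame makes no receptor chain but can remain on the other allele of a cell and be transcribed at a low level.

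The sequence that each TRBJ1 gene gave to the CDR3 is shown first, because trimming at the V side of J removes bases from its left end. The 3′ ends below were read from the in-frame CDR3s, and each base in them, in capitals, was shared by over 50% of the clonotypes of the gene at that position counted from the right.

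TRBJ1-1: AACACAGAAGTCTTCTTT
TRBJ1-2: AAACTCCGACTACACCTTC
TRBJ1-3: TTCTGGAAATACGCTCTATTTT
TRBJ1-4: CCAACGAAAGATTATTTTTC
TRBJ1-5: ACAACCAGGCTCCGCTTTTT
TRBJ1-6: TATAATTCGCCCCTCTACTTT

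The 6 ends differed in length from 18 bases for TRBJ1-1 to 22 for TRBJ1-3. Each end stops where the most common base was no longer shared by a majority of the clonotypes of the gene. This rule holds the share of clonotypes with the whole end near the cut-off for every gene. Neither that share nor the length of an end therefore measures how much of a J gene was trimmed. Within a gene, the libraries were compared on the same end. The whole end remained in 47.9% of in-frame TRBJ1-1 clonotypes, 48.7% of TRBJ1-2, 51.1% of TRBJ1-3, 55.1% of TRBJ1-4, 45.8% of TRBJ1-5 and 53.4% of TRBJ1-6. For TRBJ1-6 the whole end remained in 60.1% in DN T cells, 52.5% in CD4 and 51.4% in CD8. For the other genes the libraries lay closer together. TRBJ1-4 was also highest in DN, with 58.1%, against 56.1% in CD8 and 52.4% in CD4. DN was highest in no other gene, as in TRBJ1-5 with 44.5% in DN, 45.5% in CD4 and 47.1% in CD8 T cells. These values are descriptions without a test.

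TRBJ1 was used in a larger share of clonotypes in CD4 than in CD8 and DN T cells. The share of clonotypes was 36.0% (35.6% to 36.5%) in CD4, 30.4% (30.1% to 30.7%) in CD8 T cells and 29.2% (28.8% to 29.7%) in DN, and no pair of intervals overlapped. The ratio of shares was 0.811 (0.796 to 0.827) for DN to CD4 and 0.844 (0.831 to 0.858) for CD8 to CD4. DN and CD8 T cells lay close, with a ratio of 0.961 (0.944 to 0.979). By Fisher's exact test on clonotypes, two-sided and adjusted over the 3 pairs, p was 1.5e-100 for DN against CD4, 1.22e-91 for CD8 against CD4 and 1.95e-05 for DN against CD8. For the whole cluster an adjusted p under 0.05 was the threshold, with no minimum ratio. The comparison of DN with CD8 no longer passed it when clonotypes of 1 read were left out, with a ratio of 0.988 and adjusted p = 0.427 in the exact test.

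By reads the cluster took 32.6% in CD4, 29.9% in CD8 T cells and 25.0% in DN. The gap between DN and CD8 was thus wider by reads, with a ratio of 0.834, than by clonotypes. Without the largest clonotype of each library the shares were 33.0%, 28.4% and 25.2%, and the ratio of DN to CD8 was 0.886. A TRBJ1 clonotype held on average 2.70 reads in CD4, 1.83 in CD8 T cells and 3.96 in DN, against 3.14, 1.87 and 4.91 for TRBJ2 clonotypes.

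Among the 6 genes, TRBJ1-1, which lies next to TRBD1, had the largest share in every library. It was found in 9.79% of clonotypes in CD4, 8.52% in CD8 T cells and 8.68% in DN. TRBJ1-4 came next, with 7.65%, 6.36% and 6.55%. The ratio of DN to CD8 was 1.02 (0.980 to 1.06) for TRBJ1-1 and 1.03 (0.985 to 1.08) for TRBJ1-4, and both intervals held 1. For TRBJ1-4 the ratio was 1.11 (1.03 to 1.20) among clonotypes of at least 2 reads, with adjusted p = 0.00744 in Fisher's exact test, past the threshold for a call. Both genes were lower in DN than in CD4, by ratios of 0.887 and 0.856, and lower in CD8 than in CD4, by 0.871 and 0.831.

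TRBJ1-2 and TRBJ1-3, which are neighbours, set DN T cells apart most. TRBJ1-2 was found in 6.11% of clonotypes in CD4, 4.81% in CD8 T cells and 3.83% in DN. TRBJ1-3 had nearly the same values, with 5.93%, 4.70% and 3.82%. Both fell stepwise from CD4 over CD8 to DN, with no overlap of intervals. The ratio of DN to CD8 was 0.797 (0.752 to 0.843) for TRBJ1-2 and 0.813 (0.768 to 0.861) for TRBJ1-3, with adjusted p = 6.11e-15 and 2.03e-12 in Fisher's exact test. Against CD4, DN T cells had ratios of 0.627 and 0.644, the lowest of all J genes compared.

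TRBJ1-5, the least used gene, was found in 2.94% of clonotypes in CD4, 2.53% in CD8 T cells and 2.40% in DN. Between DN and CD8 the ratio was 0.949 (0.881 to 1.02), with an interval that held 1. It lay lower and was called by distinct amino acid clonotypes, at 0.908 (0.839 to 0.983). By reads it was 0.849 (0.810 to 0.889), also past the threshold, but reads of one clonotype are not independent. TRBJ1-6, the gene of the cluster nearest to TRBD2 among those seen, differed from the rest. It was found in 3.62% of clonotypes in CD4, 3.50% in CD8 T cells and 3.96% in DN, and its share in DN was 1.13 (1.07 to 1.20) times that in CD8, with adjusted p = 8.53e-05 in Fisher's exact test. Against CD4 the ratio in DN was 1.09 (1.02 to 1.17) with adjusted p = 0.0128 in the exact test, short of the 1.1-fold required for a call. With at least 2 reads it was 1.17 (1.06 to 1.304), and with clonotypes of 1 library only 1.104 (1.03 to 1.19), both past that threshold with adjusted p = 0.00508 and 0.0129 in the exact test.

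By reads, TRBJ1-2 remained lower in DN than in CD8 T cells, with 3.10% and 4.61%, and TRBJ1-6 remained higher, with 3.82% and 3.34%. TRBJ1-1 took 6.89% of DN and 7.56% of CD8 reads, so that its ratio of 0.911 lay below 1 where that of clonotypes lay just above it. For TRBJ1-6 the ratio of DN to CD4 was 1.19 by reads, past the threshold for a call, though reads of one clonotype are not independent.

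**Figure D1:**
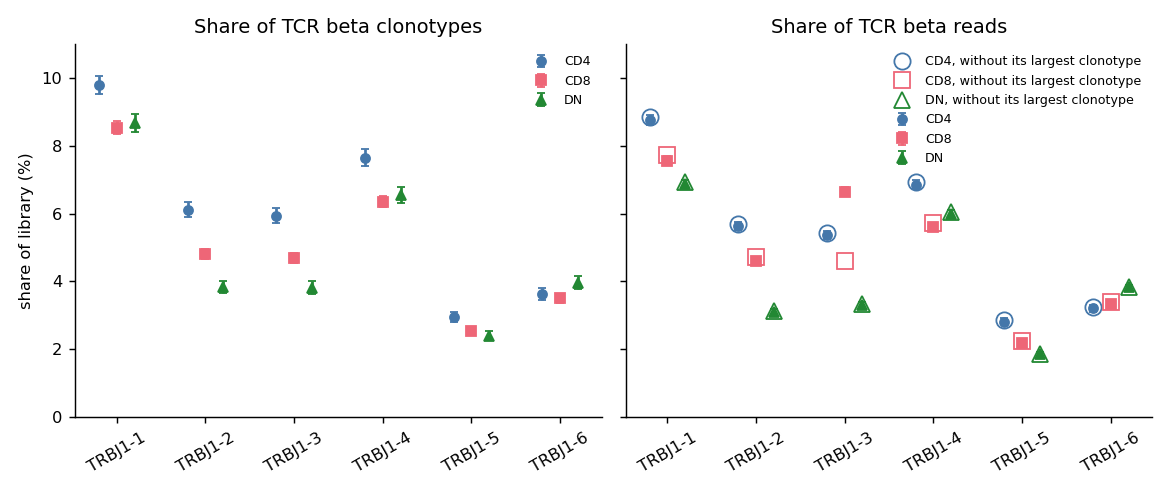
Share of TCR beta clonotypes (left) and reads (right) in percent for each TRBJ1 gene in CD4 (circles), CD8 (squares) and DN T cells (triangles), with bars for 95% Wilson intervals and large open symbols for reads without the largest clonotype of the library. TRBJ1-2 and TRBJ1-3 decline from CD4 to DN in clonotypes, and the CD8 reads of TRBJ1-3 drop from 6.65% to 4.59% without 1 clonotype.

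A gene was called different between libraries at an adjusted p under 0.05 over all J genes and pairs and a ratio of at least 1.1 in either direction. Between DN and CD8, 3 of 6 TRBJ1 genes were called, namely TRBJ1-2 and TRBJ1-3 lower and TRBJ1-6 higher in DN, while 53.8% of all 13 J genes were called. Between DN and CD4, 5 of 6 were called, all lower in DN, against 69.2% of all J genes. Between CD8 and CD4, the same 5 genes were called and all were lower in CD8, against 61.5% of all J genes. The share of TRBJ1 genes called was thus near that of all J genes in the comparison of DN with CD8. It was higher in the others, but by few genes and without a test. The 13 J genes include TRBJ2-6, which had at most 1 clonotype in a library, too few for a call. Of the TRBJ2 genes called, 2 were higher and 2 lower in DN than in CD8, 2 were higher and 2 lower in DN than in CD4, and 3 were higher and none lower in CD8 than in CD4.

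**Figure D2:**
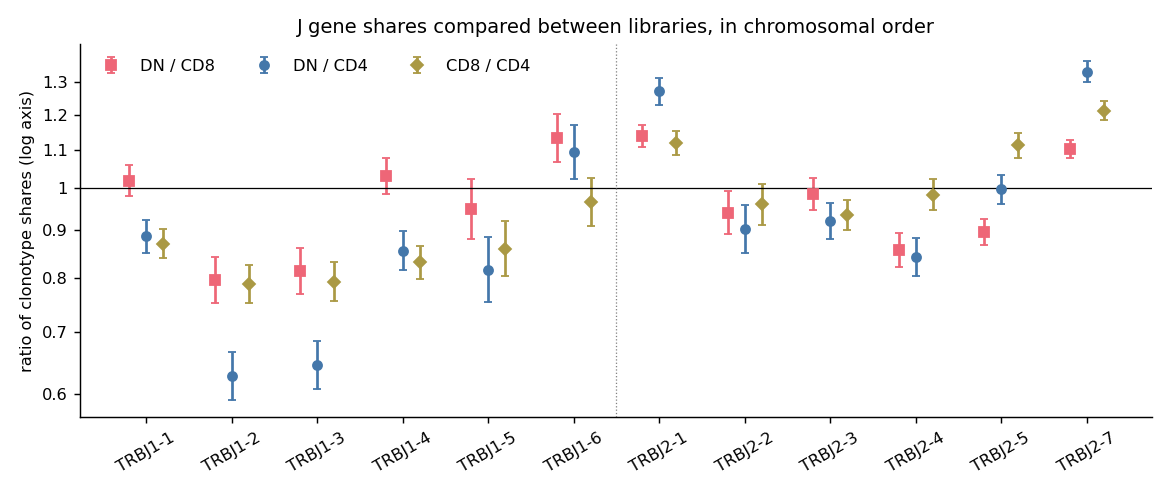
Ratio of clonotype shares on a log axis for 12 J genes in chromosomal order, for DN over CD8, DN over CD4 and CD8 over CD4, with 95% intervals and a dotted line between the 2 clusters. TRBJ1-2 and TRBJ1-3 have the lowest ratios of DN to CD4, at 0.627 and 0.644, and TRBJ1-6 lies above 1 for DN over CD8 and DN over CD4.

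The mix of genes inside the cluster also differed. Of TRBJ1 clonotypes, TRBJ1-6 made up 10.05% in CD4, 11.5% in CD8 T cells and 13.5% in DN, and the ratio of DN to CD4 was 1.35 (1.26 to 1.44). TRBJ1-2 made up 16.95%, 15.8% and 13.1%, and TRBJ1-3 made up 16.5%, 15.4% and 13.1%. TRBJ1-1 made up 27.2%, 28.0% and 29.7%. In DN T cells TRBJ1-6 thereby passed TRBJ1-2 and TRBJ1-3 and came right after TRBJ1-1 and TRBJ1-4, whereas it came after TRBJ1-2 and TRBJ1-3 in CD4 and CD8. The intervals of TRBJ1-6, TRBJ1-2 and TRBJ1-3 overlapped in DN T cells, so that their order there was not resolved.

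The largest clonotypes are printed because one of them changed the read share of its gene. The sequence runs from the conserved cysteine codon to the phenylalanine codon, and capitals mark the bases that match the common end of the J gene.

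CD4, TRBV13-2 with TRBJ1-5: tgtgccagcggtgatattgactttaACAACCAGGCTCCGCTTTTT
CD8, TRBV13-1 with TRBJ1-3: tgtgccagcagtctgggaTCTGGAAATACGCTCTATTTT
DN, TRBV1 with TRBJ1-1: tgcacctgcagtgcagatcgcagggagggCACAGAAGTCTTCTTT
DN, TRBV15 with TRBJ1-2: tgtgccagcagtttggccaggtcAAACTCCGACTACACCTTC
DN, TRBV5 with TRBJ1-3: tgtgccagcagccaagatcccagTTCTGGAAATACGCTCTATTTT
DN, TRBV13-3 with TRBJ1-4: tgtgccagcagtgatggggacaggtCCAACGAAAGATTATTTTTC
DN, TRBV13-3 with TRBJ1-5: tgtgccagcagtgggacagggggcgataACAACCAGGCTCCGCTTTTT

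In CD8 T cells, the TRBJ1-3 clonotype had 3260 reads and was the largest of that library, with 2.16% of its reads and 32.5% of all TRBJ1-3 reads. The same CDR3 with the same V and J gene had 54 reads in CD4 and 75 in DN T cells. TRBJ1-3 took 6.65% of CD8 reads with it and 4.59% without it. The ratio of CD8 to CD4 reads of TRBJ1-3 accordingly went from 1.24 to 0.844, and the clonotype share, which counts it once, had a ratio of 0.792. Its D gene was called TRBD2. In DN T cells, the TRBJ1-4 clonotype was the largest of the cluster, with 505 reads or 0.260% of the library. It was also the largest TRBJ1-4 clonotype of CD8, with 76 reads, and had 15 in CD4.

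The largest TRBJ1 clonotype of CD4 T cells used TRBJ1-5 and had 276 reads, with 20 in CD8 T cells and 154 in DN. Apart from TRBJ1-3 in CD8, no gene had more than 7.58% of its reads in 1 clonotype in any library. The largest clonotypes of the 6 genes held 161 to 276 reads in CD4 and 257 to 505 in DN T cells, and 76 to 153 in CD8 apart from TRBJ1-3. The 5 clonotypes of DN T cells printed above were also found in CD8 T cells, with 25 to 76 reads, and in CD4 T cells, with 7 to 15 reads.

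The TRBJ1 share had lower values in the classes of larger clonotypes, and the intervals for 1 read and for 10 to 99 reads did not overlap in CD8 and in DN T cells but overlapped in CD4. In DN T cells the TRBJ1 share was 29.9% of clonotypes with 1 read, 28.8% with 2 to 9 reads, 26.6% with 10 to 99 reads and 22.3% (17.3% to 28.4%) with 100 or more, where 48 of 215 clonotypes were members. In CD8 T cells the shares were 31.1%, 28.9%, 25.6% and 22.9% (12.1% to 39.0%), the last from 8 of 35. In CD4 T cells they were 36.2%, 36.0%, 34.0% and 21.2% (13.8% to 31.0%), the last from 18 of 85. Of the 100 clonotypes with most reads, 22 were members in CD4, 23 in CD8 T cells and 22 in DN. TRBJ1-6 had rising values in DN T cells up to 99 reads, from 3.86% of clonotypes with 1 read to 4.68% with 10 to 99 reads. It had 3.26% with 100 or more. No interval was computed for single genes by size, so this direction was not resolved. No test was applied to the shares by size.

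**Figure D3:**
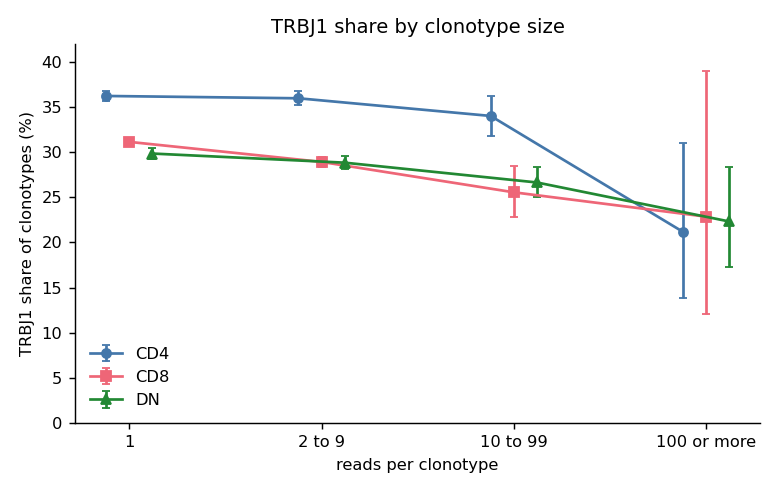
TRBJ1 share of clonotypes in percent by the number of reads per clonotype in CD4 (circles), CD8 (squares) and DN T cells (triangles), with 95% Wilson intervals. The share of CD4 lies near 36% up to 9 reads, and all 3 libraries lie between 21.2% and 22.9% at 100 or more reads, where intervals are wide.

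Clonotypes out of frame cannot encode a receptor, and among them DN T cells were not the library with the lowest TRBJ1 share. Of out-of-frame TCR beta clonotypes, TRBJ1 was used in 30.2% (28.7% to 31.8%) in CD4, 25.6% (24.2% to 27.0%) in CD8 T cells and 28.7% (27.3% to 30.3%) in DN. Of in-frame clonotypes it was used in 36.6%, 30.7% and 29.3%. Out of frame, the ratio was 0.951 (0.884 to 1.02) for DN to CD4, 0.847 (0.785 to 0.913) for CD8 to CD4 and 1.12 (1.04 to 1.21) for DN to CD8, with adjusted p = 0.184, 5.1e-05 and 0.00419 in Fisher's exact test. In frame, the ratio of DN to CD8 lay on the other side of 1, at 0.955 (0.937 to 0.973). In CD4 and CD8 T cells TRBJ1 was thus used less out of frame than in frame, with ratios of 0.827 and 0.834 and adjusted p = 5.34e-13 and 3.68e-11 in Fisher's exact test. In DN T cells the ratio was 0.981 (0.929 to 1.04) and adjusted p = 0.486 in the exact test.

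This effect of frame differed between libraries. The odds ratio of the out-of-frame to in-frame contrast in DN over that in CD4 T cells was 1.29 (1.16 to 1.44), with adjusted p = 9.95e-06 in Zelen's exact test that both odds ratios are equal. For DN over CD8 it was 1.25 (1.13 to 1.39), with adjusted p = 6.16e-05 in the same exact test. For CD8 over CD4 it was 1.03 (0.928 to 1.15), with adjusted p = 0.564 in the exact test. All other clonotypes used TRBJ2, so these contrasts hold for TRBJ2 in reverse. Among single J genes, TRBJ2-7 passed in both DN comparisons, at 0.746 (0.660 to 0.842) over CD4 and 0.753 (0.672 to 0.843) over CD8. Its adjusted p was 4.79e-05 and 3.28e-05 in Zelen's exact test. Out-of-frame clonotypes that are 1 insertion or deletion away from an in-frame one with at least 10 times the reads may be sequencing errors. For CD4, CD8 and DN, these made up 42 of 1000, 14 of 948 and 33 of 1014 TRBJ1 clonotypes out of frame. These are 4.2%, 1.48% and 3.25%, against 4.99%, 2.46% and 8.53% over all J genes. Without such clonotypes of any J gene, DN had an out-of-frame TRBJ1 share of 30.4%, close to the 30.5% of CD4. CD8 then had 25.9%. The odds ratios of the frame effect became 1.38 for DN over CD4, 1.34 for DN over CD8 and 1.03 for CD8 over CD4.

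Among the 6 genes, TRBJ1-2 had the largest odds ratio of DN over CD4. Its in-frame share was 6.17% in CD4, 4.80% in CD8 T cells and 3.71% in DN, while its out-of-frame share was 5.32% (4.61% to 6.14%), 5.08% (4.41% to 5.83%) and 5.13% (4.45% to 5.91%). The 3 libraries were ordered in frame and overlapped out of frame. The odds ratio of the frame effect of TRBJ1-2 in DN over CD4 was 1.64 (1.31 to 2.05), with adjusted p = 0.000162 in the same exact test. Out of frame, the ratio of its share in DN to that in CD4 was 0.964 (0.788 to 1.18). Within DN T cells, its out-of-frame share was 1.38 (1.19 to 1.61) times the in-frame share, and 11.3% of TRBJ1-2 clonotypes were out of frame there against 6.43% in CD4 and 4.81% in CD8.

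TRBJ1-5 in DN T cells also had a higher share out of frame, 1.44 (1.20 to 1.75) times the in-frame share. There 11.7% of its clonotypes were out of frame. Its ratio was above 1 in CD4 as well, at 1.12 (0.922 to 1.36), and in CD8, at 1.13 (0.927 to 1.37). Unlike that of TRBJ1-2 in DN against CD4, the frame effect of TRBJ1-5 did not pass there. It did not pass in DN against CD8 either, with adjusted p = 0.254 for each in Zelen's exact test. TRBJ1-1 and TRBJ1-4 were used less out of frame than in frame in each library, with ratios of 0.766, 0.773 and 0.854 for TRBJ1-1 and 0.798, 0.733 and 0.836 for TRBJ1-4 in CD4, CD8 and DN. TRBJ1-3 had ratios of 0.781 and 0.784 in CD4 and CD8 and of 1.02 in DN T cells. TRBJ1-6 had ratios of 0.839, 0.724 and 0.817.

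Within a library and with the same call rule, TRBJ1-1, TRBJ1-3 and TRBJ1-4 were called between frames in CD4, all lower out of frame, where 30.8% of the 13 J genes were called. In CD8, TRBJ1-1, TRBJ1-3, TRBJ1-4 and TRBJ1-6 were called, all lower, against 38.5%. In DN T cells TRBJ1-1 and TRBJ1-4 were called lower and TRBJ1-2 and TRBJ1-5 higher out of frame, against 38.5%. Between libraries the frame effect passed an adjusted p of 0.05 for TRBJ1-2 alone among the TRBJ1 genes in DN against CD4, where 16.7% of 12 J genes did. In DN against CD8 it passed for 0 of 6, where 8.33% of J genes did and TRBJ1-2 and TRBJ1-3 had unadjusted p = 0.0133 and 0.0300 in the exact test. In CD8 against CD4, 0% of J genes passed, and no TRBJ1 gene had an unadjusted p under 0.05. For the out-of-frame shares themselves 0 of 6 TRBJ1 genes were called in any pair by Fisher's exact test, against 0% of J genes for DN against CD8, 0% for DN against CD4 and 8.33% for CD8 against CD4. Before adjustment, only TRBJ1-3 (p = 0.0423) and TRBJ1-4 (p = 0.00701), both for CD8 against CD4, had a p under 0.05 in that exact test.

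**Figure D4:**
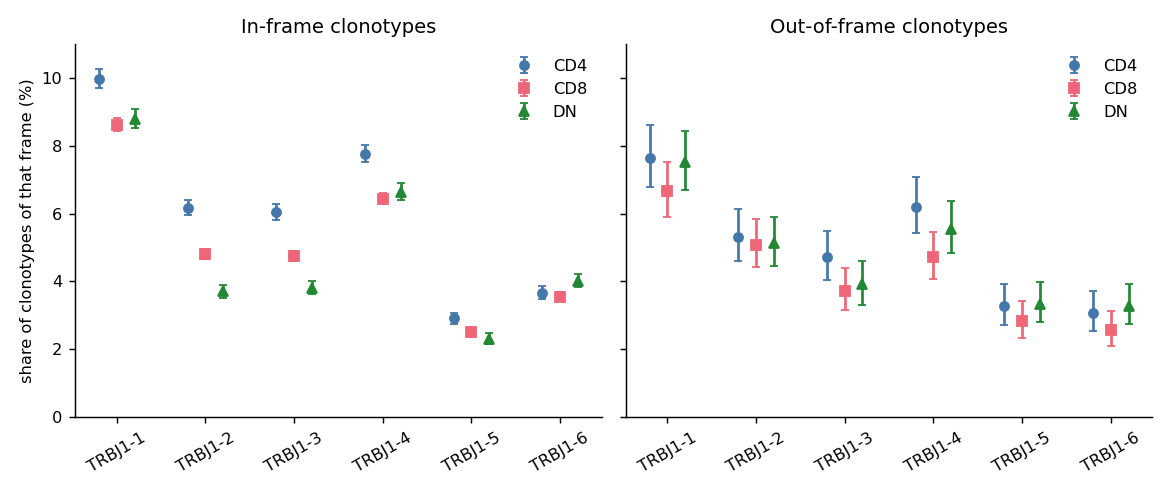
Share in percent of in-frame clonotypes (left) and of out-of-frame clonotypes (right) for each TRBJ1 gene in CD4 (circles), CD8 (squares) and DN T cells (triangles), with 95% Wilson intervals. The TRBJ1-2 points are spread from 3.71% to 6.17% in frame and lie between 5.08% and 5.32% out of frame.

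By reads, out-of-frame clonotypes used TRBJ1 more in DN T cells than in-frame ones did. The out-of-frame read share was 33.4% in DN, 28.5% in CD4 and 27.1% in CD8, beside in-frame read shares of 24.5%, 32.9% and 30.1%. The largest out-of-frame TRBJ1 clonotypes, printed because each used TRBV31, were as follows, with capitals as above.

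CD4, TRBV31 with TRBJ1-2: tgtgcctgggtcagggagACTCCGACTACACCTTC
CD8, TRBV31 with TRBJ1-4: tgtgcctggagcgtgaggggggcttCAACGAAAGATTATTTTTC
DN, TRBV31 with TRBJ1-4: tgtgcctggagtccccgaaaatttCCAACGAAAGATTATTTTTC

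TRBV31 lies downstream of the constant genes and is joined by inversion. It was the V gene of 20.6% of out-of-frame TRBJ1 clonotypes in CD4, 25.9% in CD8 T cells and 19.7% in DN, against 7.74%, 11.3% and 7.12% of in-frame ones. It carried 33.7%, 37.6% and 42.7% of out-of-frame TRBJ1 reads. Among out-of-frame TRBJ1 clonotypes with 10 or more reads, TRBV31 was used in 5 of 13, 8 of 9 and 19 of 37, chosen for display after these values were seen. The DN clonotype had 261 reads in DN, 36 in CD8 and 12 in CD4 T cells.

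The TRBJ1 share also varied with the V gene. Over 15 V genes with at least 200 clonotypes in every library, the mean TRBJ1 share of the 3 libraries was highest for TRBV20 at 38.8%, TRBV29 at 38.3% and TRBV26 at 37.2%. It was lowest for TRBV14 at 25.8%, TRBV17 at 22.3% and TRBV3 at 21.0%. TRBV29 varied most between libraries, with 46.3% in CD4, 33.3% in CD8 T cells and 35.3% in DN. TRBV1 varied least, over 1.76 percentage points.

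Within V genes, the TRBJ1 share was lower in DN than in CD4 for 14 of 15, and 11 were called, all lower in DN, which is 73.3%. It was lower in CD8 than in CD4 for 15 of 15, and 11 were called, all lower in CD8, which is again 73.3%. The ratios ran from 0.668 for TRBV4 to 1.17 for TRBV3 in DN against CD4. Between DN and CD8 it was lower in 10 and higher in 5 of 15, and TRBV26 alone was called, which is 6.67%. Its ratio was 1.15 (1.02 to 1.29), with adjusted p = 0.0429 in Fisher's exact test. By reads the TRBJ1 share of TRBV26 went the other way, with 24.9% in DN and 28.6% in CD8. TRBV13-1 (0.916), TRBV5 (0.911) and TRBV13-2 (0.937) were lower in DN but short of 1.1-fold. Their adjusted p was 0.000677, 0.0269 and 0.0492 in the exact test. When the V genes of each library were given the weights of the pooled libraries, the TRBJ1 share was 35.4% in CD4, 30.5% in CD8 T cells and 29.6% in DN, so the order of the libraries was retained at an equal V gene mix.

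**Figure D5:**
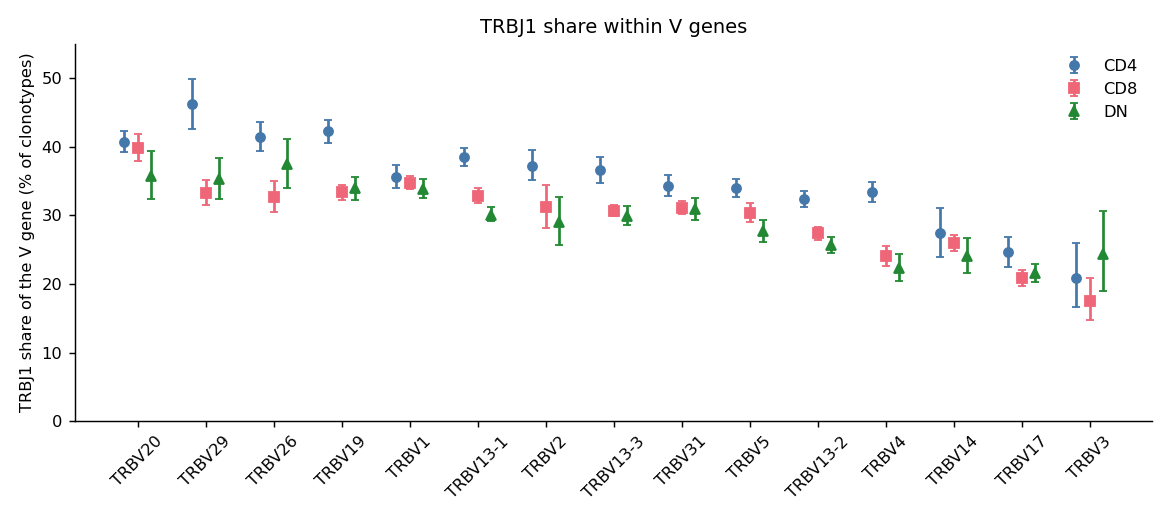
TRBJ1 share in percent of the clonotypes of each of 15 V genes, ordered by their mean over CD4 (circles), CD8 (squares) and DN T cells (triangles), with 95% Wilson intervals. The CD4 points lie above the CD8 points in all 15 V genes, and the CD8 and DN intervals overlap in most of them.

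Single V and TRBJ1 gene pairs departed from the share of the J gene in the whole library by at least 1.3-fold in the same direction in all 3 libraries for 4 of 90 pairs upward and 6 of 90 downward. TRBJ1-2 was over-represented with TRBV20 (8.11%, 10.7% and 6.01% of that V gene in CD4, CD8 and DN), TRBV26 (8.79%, 7.68% and 7.64%) and TRBV29 (9.86%, 6.40% and 5.62%). TRBJ1-3 was over-represented with TRBV26, at 10.1%, 6.59% and 6.53%. The pairs below the library share were TRBV17 with TRBJ1-2, TRBJ1-5 and TRBJ1-6, TRBV5 with TRBJ1-2, and TRBV3 with TRBJ1-1 and TRBJ1-4. TRBV17 with TRBJ1-6 was found in 2.23%, 1.36% and 1.04% of TRBV17 clonotypes. The TRBV3 pairs rest on 6 to 15 clonotypes per library. No test was applied to these pairs.

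In-frame CDR3s with TRBJ1 were longer in DN T cells. Their mean length was 13.83 residues in CD4 (SD 1.39, n = 15096 clonotypes), 13.79 in CD8 T cells (SD 1.44, n = 23704) and 13.99 in DN (SD 1.45, n = 11192). The difference of DN minus CD8 was 0.199 residues (SE 0.0166) and that of DN minus CD4 was 0.162 (SE 0.0178). TRBJ2 clonotypes had larger differences, with 0.334 and 0.339. TRBJ1-4 in DN T cells was longest, at 14.55 residues, against 14.20 in CD4 and 14.31 in CD8. TRBJ1-1, with the shortest common end, was shortest in each library, at 13.26, 13.21 and 13.30 residues. DN minus CD8 was above 0 for all 6 genes, from 0.0897 (0.0304 to 0.149) for TRBJ1-1 to 0.280 (0.193 to 0.368) for TRBJ1-6. DN minus CD4 had an interval that held 0 for TRBJ1-1 and TRBJ1-6.

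The D gene called on TRBJ1 clonotypes was TRBD1 in 61.3% in CD4, 59.9% in CD8 T cells and 60.4% in DN. TRBD2 was called in 5.61% (5.27% to 5.98%), 5.21% (4.94% to 5.49%) and 6.41% (5.99% to 6.86%), and no D gene in 33.1%, 34.9% and 33.2%. The short D segments are similar, and a call may be wrong for a trimmed one. By reads, TRBD2 was called in 11.97% of TRBJ1 reads in CD8, a library where 3260 of them came from the one TRBJ1-3 clonotype. The call of TRBD2 on TRBJ2 clonotypes, for comparison, was 43.0%, 44.7% and 53.9%.

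Some TRBJ1 clonotypes, matched by V gene, J gene and the nucleotides of the CDR3, were found in more than 1 library. DN and CD8 T cells shared 2135, which were 17.4% of DN and 8.64% of CD8 TRBJ1 clonotypes and held 61.5% and 25.2% of their TRBJ1 reads. DN and CD4 shared 1068, which were 8.71% of DN and 6.61% of CD4 TRBJ1 clonotypes and held 43.3% and 15.7% of their TRBJ1 reads. CD8 and CD4 shared 1189, which were 4.81% and 7.36% and held 19.9% and 20.6% of reads. CD8 had more TRBJ1 clonotypes than CD4, 24701 against 16146, and no allowance was made for this. Of TRBJ2 reads, clonotypes shared by DN and CD8 held 68.2% in DN and 24.4% in CD8. For TRBJ2 the corresponding shares were 19.0% and 9.98% for DN and CD8, 9.05% and 9.37% for DN and CD4, and 4.79% and 9.45% for CD8 and CD4. Of 1937 clonotypes found in all 3 libraries, 503 (26.0%) used TRBJ1, beside 36.0%, 30.4% and 29.2% of all clonotypes in CD4, CD8 and DN. By gene, the shared part of DN clonotypes with CD8 ran from 16.1% for TRBJ1-5 to 18.2% for TRBJ1-4. Carry-over of molecules between libraries was not tested, and equal CDR3s can arise in separate cells.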

How the data were processed

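TCR libraries of DN, CD8 and CD4 T cells of 1 mouse spleen were made with the Takara SMARTer Mouse TCRα/β kit. Reads were aligned and assembled into clonotypes by the authors in MiXCR, whose version, settings, germline reference and use of molecular identifiers are not given in the sources used here. Gene calls may be wrong where the alleles of this strain differ from that reference. The deposited tables give each clonotype's count of reads and its fraction of the library's reads, without normalization. The deposited fraction equalled count over table total and was not used further. Clonotypes with TRBV and TRBJ genes were kept, and 84, 101 and 78 others in CD4, CD8 and DN were left out. In frame means a CDR3 translation without a frame shift or stop.

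Samples were grouped by their labels, with 1 library per subset. J gene shares of clonotypes were compared by two-sided Fisher's exact tests with Benjamini-Hochberg adjustment over 13 J genes and 3 pairs, and called at adjusted p under 0.05 and a ratio of at least 1.1. For the whole cluster, adjusted p under 0.05 over the 3 pairs was the threshold. V genes needed at least 200 clonotypes per library. Frame effects were compared between libraries by Zelen's exact test of equal odds ratios, with Wald intervals, a comparison added after the values were seen. Alternatives were reads, removal of the largest clonotype, in-frame clonotypes, at least 2 reads, clonotypes of 1 library, merging of near-identical clonotypes and amino acid clonotypes. The naming rule took all TRBJ1 genes, the 3 V genes with the highest and lowest TRBJ1 shares, V genes called between libraries and the largest clonotype of each gene and library. V genes and clonotypes beyond those printed are given as counts and ranges. The members and lists were chosen with earlier results of these data known. The tests were checked on simulated counts drawn independently. That check covers counting error only, not sequencing errors or variation between replicate libraries. TRBJ1-6, not among the 5 genes first listed, was included because it meets the naming rule. The RefSeq list of GRCm38.p6 gave gene order only. Tests ran in SciPy 1.17.1 with pandas 2.3.3 and NumPy 2.4.6 under Python 3.11.15. The sequence of 1 clonotype is not reported here.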

Additional observations from a re-analysis of the deposited data

Results flagged for a closer look

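The effect of reading frame on TRBJ1 use differed between libraries by a test of the difference itself. The odds ratio of the out-of-frame to in-frame contrast for the whole cluster was 1.25 in DN over CD8 and 1.29 in DN over CD4 T cells. For TRBJ1-2 alone it was 1.64 in DN over CD4. For TRBJ2-7, outside the cluster, it was 0.746 in DN over CD4 and 0.753 in DN over CD8. With 1 library per subset, these are differences between libraries.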

How the results depend on the processing

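Across the alternatives run, the ratio of TRBJ1 shares stayed between 0.762 and 0.835 for DN to CD4 and between 0.807 and 0.918 for CD8 to CD4, each in the direction reported. Adjusted p stayed under 0.05 for both pairs in every alternative with a test, which the pooled V gene mix did not have. For DN to CD8 the ratio ran from 0.834 to 0.988, and at 0.988, with at least 2 reads, adjusted p was no longer under 0.05. Reads of one clonotype are not independent, so adjusted p by reads may be too small and calls by reads are descriptions only. By reads without the largest clonotype, 5 TRBJ1 genes were called between DN and CD8 in place of 3. In that setting TRBJ2-1 (1.29), TRBJ2-4 (0.789), TRBJ2-5 (0.856) and TRBJ2-7 (1.11) also had ratios past 1.1-fold. TRBJ1-6 in DN against CD4 was gained in 4 alternatives at 1.104 to 1.19, which made 6 TRBJ1 genes called there in place of 5. The share of all J genes called in these alternatives is not given here. In DN against CD8, TRBJ1-5 was gained by reads (0.849, and 0.836 without the largest clonotype) and by amino acid clonotypes (0.908), and TRBJ1-4 with at least 2 reads (1.11). At least 2 reads gave mean TRBJ1 CDR3 lengths of 13.79 residues in CD4 and 13.67 in CD8, and 0 V genes called between DN and CD8 by Fisher's exact test. Weighting by reads gave mean lengths of 13.68 in CD8 and 14.08 in DN. By reads, the direction turned for TRBJ1-1 in DN against CD8 (0.911, and 0.898 without the largest clonotype), TRBJ1-6 in CD8 against CD4 (1.04 and 1.05) and TRBJ1-3 in CD8 against CD4 (1.24 with the largest clonotype only). At least 2 reads turned TRBJ1-5 in DN against CD8 to 1.01. Without insertion or deletion relatives, a check chosen after seeing the data like that of the V gene mix, the frame effect turned to 1.01 for TRBJ1-6 in DN against CD4 and to 0.980 for TRBJ1-1 in CD8 against CD4. The same check brought 2 further frame effects past the threshold, TRBJ1-2 in DN against CD8 at 1.40 and TRBJ1-3 in DN against CD4 at 1.44. Other than for the TRBJ1-3 read share, where 1 clonotype decides the value, the cause was not tested. Numbers of clonotypes limit the values of large and of out-of-frame clonotypes. No paired analysis was possible because each subset had 1 library from the same mouse and the labels give no replicate numbers.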
